A study of Homo sapiens with 16 samples.

Results

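Levels of 10 actin contractile genes were followed in CAL51 cells, an established human line of triple-negative breast cancer, under CC-671. The genes were CNN1, CNN2, CNN3, TAGLN, ACTA2, MYL9, TPM1, TPM2, CALD1 and SRF, taken by symbol from the count table, so that they are 10 of 55510 symbols. All 10 passed the filter on low counts, which left 22007 genes to test. CC-671 is an inhibitor of 2 kinases, TTK of the spindle checkpoint and CLK2, which phosphorylates splicing factors. The cells, near-diploid with some tetraploidy, at passage 10 and grown in DMEM with serum, received CC-671 at 3 µM for 6 h, at 10 µM for 6 h, at 3 µM for 24 h or at 10 µM for 24 h, with 3 libraries each, and DMSO vehicle alone for 6 h or 24 h, with 2 libraries each. All groups share 1 cell line, and replicates are named biological in the labels with no word on separate cultures, so a p-value here covers the spread among the 16 libraries, which may be technical.

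CNN1 gave the list its name and was chosen by its measured fall at 24 h, among the deepest of all genes. Its values in any comparison that holds a 24 h library are therefore a description with no test. The other 9 genes were added for their function when results of these data were already known, so their count and direction at 24 h are not independent evidence. Tests across all 22007 genes are given for them. A difference with an edgeR adjusted p under 0.05 is called a change, levels are in CPM (read pairs relative to the depth of the library at genes, scaled by TMM), and log2 fold changes are given ± SE.

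In contractile cells, myosin slides along actin filaments that are lined by tropomyosin and held by calponin, caldesmon and transgelin. Phosphorylation of the regulatory light chain switches the myosin on. Many genes of this apparatus are known targets of the serum response factor, SRF, which binds the CArG box in their regulatory DNA. SRF acts with the coactivators myocardin and MRTF, and MRTF is held in the cytoplasm by monomeric actin. Epithelial and carcinoma cells use most of the same proteins, partly as other family members, in stress fibres.

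Promoter windows, from 250 bases before to 50 after each annotated start, were taken from RefSeq on GRCh38.p14. They covered 8 of the 10 genes in 15 windows, with none for TAGLN and MYL9. A complete CArG box, a motif that reads the same on both strands, was found in 2 of the 15 windows, those of CNN2 and of SRF itself. Among all 35116 windows in the table, 1.29% held one. The windows of CNN1, which had the deepest fall, and of CNN2 and SRF, which held boxes, are shown in lower case, with each CArG box in capitals. They lie on the plus strand at chr19:11538601-11538900 for CNN1, chr19:1026358-1026657 for CNN2 and chr6:43171019-43171318 for SRF.
CNN1: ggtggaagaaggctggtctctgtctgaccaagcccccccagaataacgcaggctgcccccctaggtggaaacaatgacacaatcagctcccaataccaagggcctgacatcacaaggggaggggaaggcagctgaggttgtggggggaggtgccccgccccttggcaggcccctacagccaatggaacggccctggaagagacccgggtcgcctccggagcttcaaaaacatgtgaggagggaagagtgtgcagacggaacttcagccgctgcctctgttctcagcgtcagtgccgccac
CNN2: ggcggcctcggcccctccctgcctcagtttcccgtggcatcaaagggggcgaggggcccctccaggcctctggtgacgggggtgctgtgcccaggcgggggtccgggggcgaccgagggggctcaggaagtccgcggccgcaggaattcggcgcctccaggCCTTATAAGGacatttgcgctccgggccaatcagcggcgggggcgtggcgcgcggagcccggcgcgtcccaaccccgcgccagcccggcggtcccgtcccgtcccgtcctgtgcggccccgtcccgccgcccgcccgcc
SRF: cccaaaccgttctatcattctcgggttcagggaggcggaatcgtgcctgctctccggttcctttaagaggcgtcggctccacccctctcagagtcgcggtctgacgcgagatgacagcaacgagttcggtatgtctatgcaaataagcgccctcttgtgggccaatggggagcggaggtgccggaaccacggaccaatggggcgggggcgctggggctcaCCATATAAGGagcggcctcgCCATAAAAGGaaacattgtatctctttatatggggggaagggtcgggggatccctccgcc
The box of CNN2 began 89 bases upstream of the start, and those of SRF 30 and 10 bases upstream. The CNN1 window held none, nor did those of CNN3, ACTA2, TPM1, TPM2 and CALD1. This says only that the complete motif is not in these windows.

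Depth at genes was 104609173 to 123789361 read pairs. Within groups no library duplicated another: the chi-square of the 14 replicate pairs, per gene, was 2.41 to 18. The epithelial markers KRT8, KRT18, KRT19 and EPCAM stood at medians of 662, 554, 270 and 294 CPM and CDH1 at 38.2 CPM, but CLDN4 at 2.41 CPM and KRT7 at 0.335 CPM. Of the mesenchymal markers, FN1 stood at a median of 1501 CPM, VIM at 302, ZEB1 at 65.1, CDH2 at 27.1 and SNAI2 at 3.97 CPM. The hormone receptor genes ESR1 and PGR had 31 counts each over all 16 libraries. Of the genes that define smooth muscle, DES (desmin) reached at most 0.0709 CPM, SYNPO2 0.231 CPM, and MYH11 (smooth muscle myosin) stood at 0.167 to 1.73 CPM. By contrast, MYOCD reached 4.16 CPM, LMOD1 11.8 CPM, ACTG2 36.3 CPM and SMTN 42.1 CPM. The cells thus had most of the epithelial and mesenchymal markers read and part of the smooth muscle genes, with little DES, SYNPO2 or MYH11 RNA.

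At 24 h, every one of the 9 tested genes was lower in CC-671 than in DMSO at both doses. Of the 9, ACTA2 and TAGLN fell most, ACTA2 to 35.7% and 29.7% of DMSO at 3 and 10 µM, and TAGLN to 40.8% and 34%. CNN2, TPM1, TPM2 and MYL9 stood at 51.2 to 62.4% of DMSO, and CNN3, SRF and CALD1 at 72 to 87%. The background was broad, since 60.6% of all genes changed at 3 µM, 30.9% downwards, and 63.6% at 10 µM, 32.3% downwards. The median log2 fold change of the 9 genes was −0.79 at 3 µM and −0.92 at 10 µM, against 0.001 and 0.005 over all genes tested. Without scaling factors, 62.9% and 62.3% of the changed genes were higher than in DMSO, and the same count of 9 genes fell. Since the list was drawn up with falls at 24 h in view, nothing is read from these counts.

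**Figure D1:**
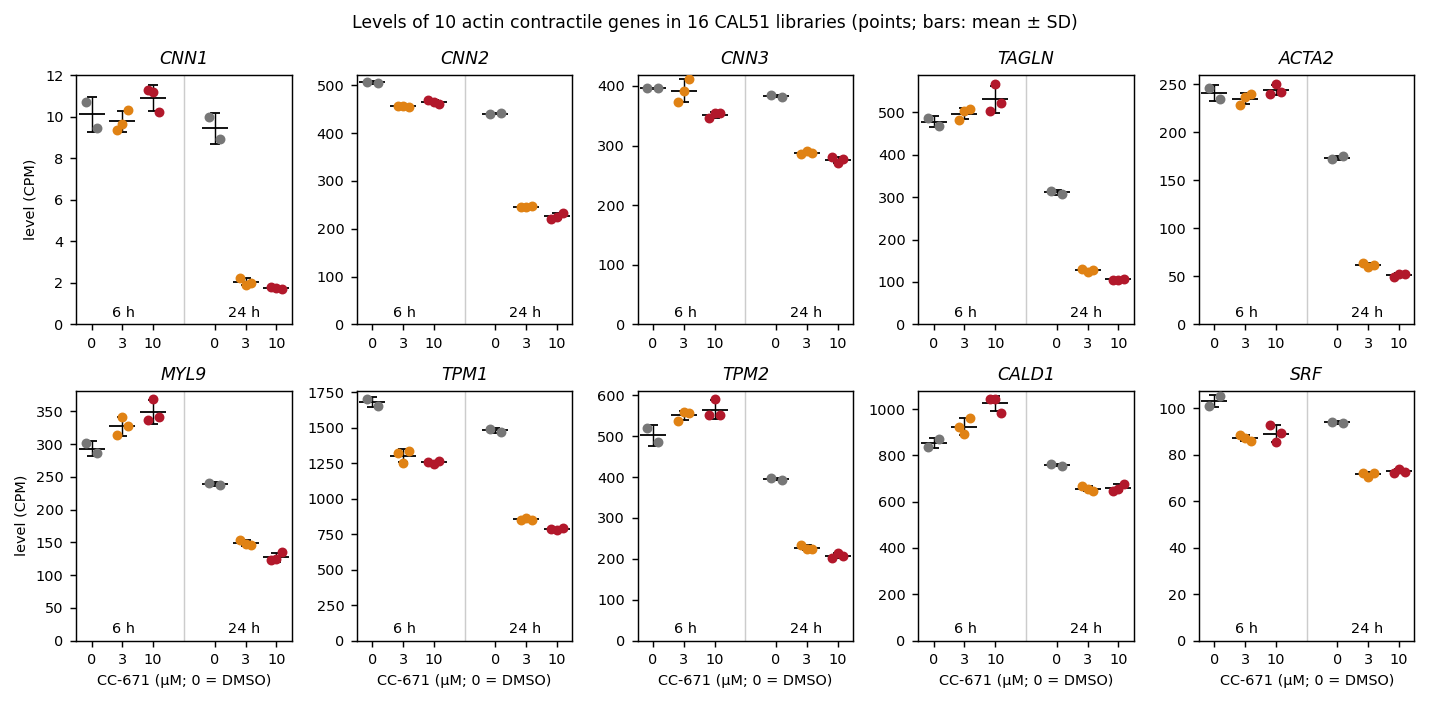
Level of each gene (CPM, vertical axis from 0) in each library at 0 (DMSO), 3 and 10 µM CC-671, with 6 h on the left and 24 h on the right of each panel. Points are libraries and bars are means ± SD (3 treated, 2 DMSO libraries). In all 10 panels the treated libraries at 24 h lie under both DMSO libraries of 24 h. CNN1 was picked for its fall at 24 h, and the share of all genes that separate this way was not counted. At 6 h the order differs from gene to gene.

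Among the calponins, which bind actin and slow actomyosin, CNN1 was the rarest gene of the list and had the deepest fall. At 3 µM and 24 h CNN1 had 2.25, 1.9 and 1.98 CPM, against 9.96 and 8.92 CPM in DMSO. At 10 µM it had 1.78, 1.74 and 1.68 CPM. All 6 treated libraries lay far under both DMSO libraries, and those at 10 µM lay under those at 3 µM. The log2 fold changes were −2.21 ± 0.08 at 3 µM and −2.45 ± 0.08 at 10 µM, which left only 18 and 27 of the tested genes with a deeper fall. These values rest on 194 to 258 counts per treated library, against 906 and 1120 in DMSO.

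CNN2, the broadly expressed calponin, had 246, 245 and 248 CPM at 3 µM and 24 h, against 440 and 442 CPM in DMSO. At 10 µM the values were 220, 225 and 232 CPM. The groups did not overlap, and log2 fold changes were −0.84 ± 0.03 (edgeR adjusted p = 2.18e-19) and −0.97 ± 0.03 (6.61e-21). CNN3, the acidic calponin, fell less. It averaged 288 ± 3 CPM at 3 µM, against 383 ± 2.2 CPM in DMSO (SD, n = 3 and 2), and 276 ± 5.3 CPM at 10 µM. Its log2 fold changes were −0.41 ± 0.03 (adjusted p = 1.82e-11) and −0.47 ± 0.03 (7.57e-13). CNN2 thus fell more than CNN3 at both doses, where 30.9% of all genes fell at 3 µM and 32.3% at 10 µM. CNN1, picked for its fall at 24 h, is not counted with them.

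TAGLN encodes transgelin (SM22), a calponin-related actin bundler that marks early smooth muscle. At 3 µM and 24 h it had 130, 124 and 128 CPM, against 315 and 308 CPM in DMSO. At 10 µM it had 104, 105 and 108 CPM. No treated library came near the DMSO libraries, and the log2 fold changes were −1.29 ± 0.04 (adjusted p = 2.18e-20) and −1.56 ± 0.04 (2.15e-22). ACTA2, the smooth muscle alpha actin, had 64.2, 60.1 and 61.3 CPM at 3 µM and 24 h, against 172 and 175 CPM in DMSO. Its values at 10 µM were 49.6, 52.4 and 52.7 CPM. ACTA2 therefore had the deepest fall of the 9 tested genes, −1.49 ± 0.04 (adjusted p = 2.25e-22) and −1.75 ± 0.04 (8.66e-24). Counting of ACTA2 is less certain than that of most members, since the muscle actin genes have near-identical coding sequence and ACTA2 overlaps 3 genes on the opposite strand in GENCODE 29. One of these, the death receptor gene FAS, averaged 18.2 CPM at 3 µM and 19.2 CPM at 10 µM at 24 h, and 7.89 CPM in DMSO at 24 h. The span of FAS meets only 1 exon stretch of ACTA2. That of STAMBPL1 meets 9, and STAMBPL1 averaged 0.173, 0.274 and 0.0696 CPM in the same groups. TAGLN likewise overlaps PCSK7, a proprotein convertase gene, which averaged 38.5 CPM at 3 µM, 37.4 CPM at 10 µM and 45.2 CPM in DMSO at 24 h. The strand setting of the counting is not given in the sources used here.

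MYL9, a regulatory light chain of smooth muscle and non-muscle myosin, averaged 149 ± 4.3 CPM at 3 µM and 24 h, against 239 ± 3.4 CPM in DMSO. The 10 µM libraries averaged 127 ± 6.6 CPM, and the log2 fold changes were −0.68 ± 0.04 (adjusted p = 8.92e-12) and −0.91 ± 0.04 (3.9e-14). The tropomyosins line the actin filament. TPM1, the most abundant of the 10 genes by CPM, had 848 to 866 CPM at 3 µM, against 1472 and 1495 CPM in DMSO, and 778 to 795 CPM at 10 µM. TPM2 had 223 to 234 CPM at 3 µM, against 393 and 397 CPM in DMSO, and 202 to 214 CPM at 10 µM. Both tropomyosins fell, with near-equal values. The log2 fold change of TPM1 was −0.79 ± 0.03 at 3 µM and −0.92 ± 0.03 at 10 µM, and that of TPM2 −0.8 ± 0.04 and −0.93 ± 0.04 (largest adjusted p = 1.3e-16).

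CALD1, caldesmon, which binds actin, tropomyosin and myosin, moved least. It had 647 to 667 CPM at 3 µM and 24 h, against 756 and 761 CPM in DMSO, and 647 to 676 CPM at 10 µM. Its log2 fold changes of −0.21 ± 0.03 (adjusted p = 7.06e-06) and −0.2 ± 0.03 (9.29e-06) still exceeded the spread between libraries. SRF, the transcription factor, averaged 71.5 ± 0.89 CPM at 3 µM, against 93.8 ± 0.48 CPM in DMSO, and 72.9 ± 0.87 CPM at 10 µM. It changed by −0.39 ± 0.03 (adjusted p = 7.67e-11) and −0.36 ± 0.03 (2.66e-10). The SRF values lay between those of CNN3 and CALD1. The 2 doses share their DMSO libraries, so their values are not independent of each other.

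**Figure D2:**
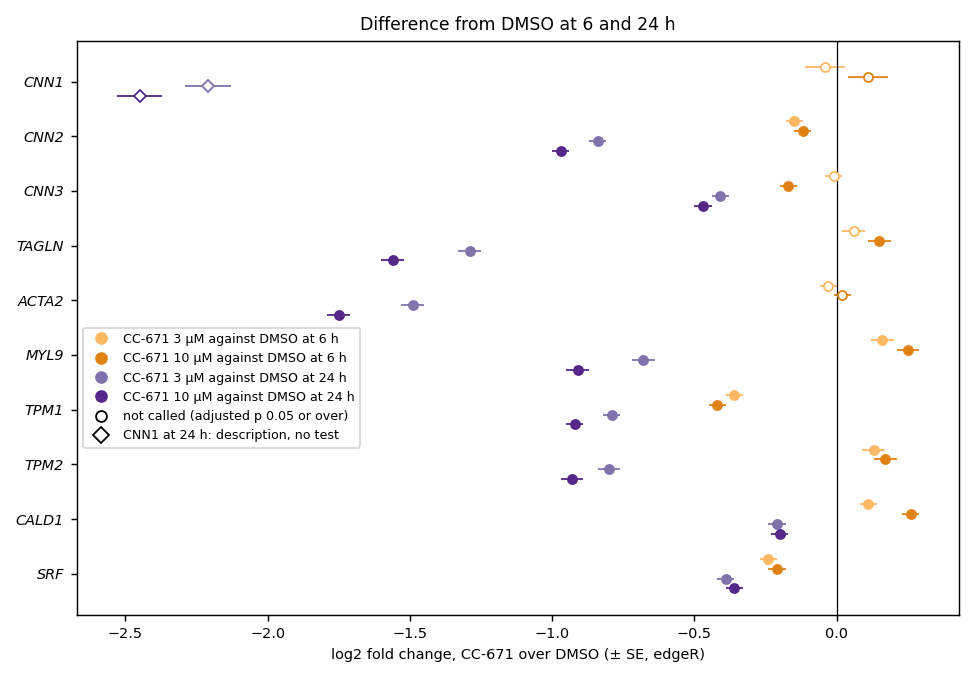
Log2 fold change of CC-671 over DMSO (horizontal axis, ± SE) for each gene at both doses and times. Filled circles are changes, open circles did not pass, and diamonds mark CNN1 at 24 h, which was not tested. The 24 h values run from −2.45 for CNN1 to −0.2 for CALD1, and the 6 h values lie between −0.42 and 0.26.

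At 6 h the same genes showed small changes in both directions. At 3 µM, 3 genes rose, 3 fell and 4 did not pass, that is 6 of 10 changed, close to the 63.2% of all genes (31.6% higher and 31.6% lower). At 10 µM, 4 rose, 4 fell and 2 did not pass, against 67.6% of all genes changed. TPM1 had the largest early fall, with 1320, 1255 and 1338 CPM at 3 µM, against 1704 and 1655 CPM in DMSO, and 1258, 1245 and 1264 CPM at 10 µM. The groups were apart, at −0.36 ± 0.03 (edgeR adjusted p = 2.13e-11) and −0.42 ± 0.03 (7.96e-13). SRF changed by −0.24 ± 0.03 and −0.21 ± 0.03 (adjusted p = 4.39e-07 and 3.04e-06), and CNN2 by −0.15 ± 0.03 and −0.12 ± 0.03 (4.15e-05 and 0.000458). CNN3 fell at 10 µM (−0.17 ± 0.03, adjusted p = 4.43e-05).

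CALD1, MYL9 and TPM2 were higher than in DMSO at 6 h. CALD1 averaged 925 ± 35 CPM at 3 µM, against 854 ± 23 CPM in DMSO, and 1025 ± 34 CPM at 10 µM. Its log2 fold changes were 0.11 ± 0.03 (adjusted p = 0.00497) and 0.26 ± 0.03 (1.26e-07). MYL9 rose by 0.16 ± 0.04 and 0.25 ± 0.04 (adjusted p = 0.00378 and 3.4e-05), and TPM2 by 0.13 ± 0.04 and 0.17 ± 0.04 (0.00245 and 0.000169). The call of each of these 3 genes at 3 µM ended when a single library was left out. Without replicate 2 of DMSO, adjusted p was 0.0747 for MYL9 and 0.121 for TPM2. For CALD1 it was 0.159 without replicate 1 of DMSO and 0.0616 without replicate 3 of 3 µM. TAGLN rose at 10 µM (0.15 ± 0.04, adjusted p = 0.000883).

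CNN1 did not pass at 6 h. It had 9.34, 9.65 and 10.3 CPM at 3 µM, against 10.7 and 9.47 CPM in DMSO, and 11.3, 11.2 and 10.2 CPM at 10 µM. Treated and DMSO libraries overlapped at both doses. The log2 fold changes were −0.04 ± 0.07 (95% interval −0.18 to 0.1, edgeR adjusted p = 0.598) and 0.11 ± 0.07 (−0.03 to 0.25, adjusted p = 0.15). When only genes with at least 1 CPM in 5 libraries were tested, the value at 10 µM was 0.16 and passed (adjusted p = 0.0442). ACTA2 did not pass either, with intervals of −0.11 to 0.04 at 3 µM and −0.05 to 0.09 at 10 µM.

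The difference between the effects at 24 h and 6 h was tested directly. All 9 tested genes had a lower log2 fold change at 24 h than at 6 h, at both doses, where 49.3% of all genes changed at 3 µM and 54% at 10 µM, 23.7% and 26.4% downwards. Those higher at 24 h were 25.6% and 27.6% of all genes, and without scaling factors they made up 61.9% and 61.3% of the changed genes. The largest differences were those of ACTA2, −1.45 ± 0.05 at 3 µM and −1.77 ± 0.05 at 10 µM, and of TAGLN, −1.35 ± 0.05 and −1.71 ± 0.05 (largest edgeR adjusted p = 8.17e-17). The smallest was that of SRF, −0.15 ± 0.05 at both doses (adjusted p = 0.009 and 0.00772). The SRF calls ended without scaling factors (adjusted p = 0.21 and 0.324) and without replicate 1 of DMSO at 6 h (0.091 and 0.077). For CNN1 the differences were −2.16 and −2.56, given as a description.

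The DMSO libraries themselves moved with time. In DMSO at 24 h, 8 of the 9 genes were lower than in DMSO at 6 h, where 20.5% of all genes changed and 9.55% fell. TAGLN averaged 311 ± 5 CPM at 24 h and 478 ± 13 CPM at 6 h in DMSO (−0.62 ± 0.04, edgeR adjusted p = 5.98e-11). ACTA2 averaged 173 ± 2.3 and 241 ± 8.1 CPM in the same groups (−0.47 ± 0.04, adjusted p = 1.5e-09). TPM2 changed by −0.35 ± 0.04, MYL9 by −0.3 ± 0.05, CNN2 by −0.2 ± 0.03, TPM1 by −0.18 ± 0.03 and CALD1 by −0.17 ± 0.04. SRF changed by −0.13 ± 0.04 (adjusted p = 0.00903), a call that ended without replicate 2 of DMSO at 6 h (0.108) and without replicate 1 or 2 of DMSO at 24 h (0.0548 and 0.0789). CNN3 did not pass (−0.05 ± 0.04, adjusted p = 0.41). For TAGLN and ACTA2, the difference between CC-671 and DMSO at 24 h came on top of a lower level in DMSO at 24 h, and the comparisons of 24 h use those DMSO libraries.

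At 24 h, 6 of the 9 tested genes were lower at 10 µM than at 3 µM and none was higher, where 6.35% of all genes changed, with 3.85% lower and 2.49% higher. Without scaling factors 50.2% of the changed genes were higher. TAGLN averaged 106 ± 2.2 CPM at 10 µM and 127 ± 3.3 CPM at 3 µM (−0.26 ± 0.04, edgeR adjusted p = 2.59e-05). ACTA2 differed by −0.26 ± 0.03 (1.47e-05), MYL9 by −0.23 ± 0.04 (0.00129), CNN2 by −0.13 ± 0.03 (0.00292), TPM1 by −0.12 ± 0.03 (0.00618) and TPM2 by −0.13 ± 0.03 (0.0186). The libraries of the 2 doses did not overlap in these 6 genes, nor in CNN3 and SRF, which did not pass. Such lack of overlap was not counted over all genes, so nothing is read from it. The TPM2 call ended without replicate 1 of 3 µM (adjusted p = 0.112), replicate 1 of 10 µM (0.128) or replicate 3 of 10 µM (0.0709). CNN3, CALD1 and SRF did not pass, with 95% intervals of −0.12 to 0, −0.06 to 0.07 and −0.03 to 0.09 on the log2 scale. At 6 h, CNN3 was lower at 10 µM than at 3 µM (−0.16 ± 0.03, adjusted p = 0.000233), and CALD1 (0.15 ± 0.03, 0.000679) and TAGLN (0.1 ± 0.03, 0.0377) were higher. That is 3 of 10 genes, where 24.9% of all genes changed, 12% upwards and 12.9% downwards. The TAGLN libraries of the 2 doses overlapped, and the call ended with RLE scaling (adjusted p = 0.0545), in DESeq2 (0.0691), in a fit of the compared groups alone (0.143), without replicate 1 of 3 µM (0.143) and without replicate 2 of 10 µM (0.252). Of the genes that did not pass, MYL9 and TPM1 passed without replicate 2 of 3 µM (0.0377 and 0.0408). CNN1, at 0.15 ± 0.06 (adjusted p = 0.0633), passed without replicate 3 of 3 µM (0.0454) and without replicate 3 of 10 µM (0.0206).

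Scaled by the length of all annotated exons (GENCODE 29), the 10 genes lay closer together than by CPM. In DMSO at 6 h, TPM2 had 155 CPM per kb, CNN3 140 and CNN2 139, TPM1 130, TAGLN 122 and MYL9 104. CALD1 stood at 86.8, ACTA2 at 81, SRF at 24.5 and CNN1 at 3.5 CPM per kb. At 24 h and 10 µM, TAGLN stood at 27.1 and ACTA2 at 17.3 CPM per kb, close to SRF at 17.3, and CNN1 at 0.599. In DMSO at 24 h the same genes stood at 79.4, 58.1, 22.3 and 3.27 CPM per kb. Exon length counts all isoforms together, so these levels are approximate for TPM1 and CALD1, which have many.

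Other genes of the actin apparatus were read from 4 lists, described in turn. These lists too were drawn up with earlier results of these data known, so their counts are not independent evidence. Where 1 value is given for a gene of the lists, it is that at 10 µM.

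Of 23 actins and actin-binding proteins, 18 fell and none rose at 10 µM and 24 h (median −0.52), where 32.3% of all genes fell and 31.3% rose. At 3 µM and 24 h 17 of them fell, where 30.9% of all genes fell. At 10 µM and 6 h, 9 fell and 10 rose, where 33.6% of all genes fell and 34% rose. The cytoplasmic actin ACTB averaged 4583 CPM at 3 µM and 24 h, against 7387 CPM in DMSO (−0.69 ± 0.03), and changed by −0.84 ± 0.03 at 10 µM. ACTG1, the other cytoplasmic actin, changed by −0.36 ± 0.03 and −0.4 ± 0.03. At 6 h both were slightly higher than in DMSO, ACTB by 0.11 ± 0.03 and 0.16 ± 0.03 and ACTG1 by 0.21 ± 0.03 and 0.28 ± 0.03. The muscle actins ACTC1 and ACTG2 moved at 24 h much as ACTA2 did, by −1.43 ± 0.07 and −1.29 ± 0.05 at 3 µM and by −1.48 ± 0.08 and −1.45 ± 0.05 at 10 µM. Read pairs that did not align to 1 place only were counted for no gene, so the levels of these near-identical genes are uncertain. TPM4, a cytoskeletal tropomyosin, changed by −0.92 ± 0.03 at 10 µM and 24 h. PDLIM7, a PDZ-LIM scaffold on actin filaments, was lower at both times, by −0.62 ± 0.03 at 6 h and −0.97 ± 0.03 at 24 h with 10 µM.

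Myosin genes were mixed. Of 15 genes, 10 fell and 2 rose at 10 µM and 24 h (median −0.18), where 32.3% of all genes fell and 31.3% rose. At 10 µM and 6 h, 6 fell and 7 rose (median 0.16), near the 33.6% and 34% of all genes. MYLK, the kinase of the regulatory light chain, averaged 132 CPM at 10 µM and 24 h, against 316 CPM in DMSO (−1.26 ± 0.03), and was already lower at 6 h (−0.64 ± 0.03). The non-muscle myosin heavy chains MYH9 and MYH10 were also lower at both times. MYH9 changed by −1.01 ± 0.09 at 24 h and −0.55 ± 0.09 at 6 h, and MYH10 by −0.88 ± 0.05 and −0.6 ± 0.05. MYH11 went the other way, from near silence. It averaged 1.6 CPM at 10 µM and 6 h, against 0.187 CPM in DMSO (3.09 ± 0.18), and 0.615 CPM at 24 h, against 0.352 CPM (0.8 ± 0.18).

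Of 7 coactivators and partners of SRF, 4 fell and 1 rose at 10 µM and 24 h, against 32.3% and 31.3% of all genes. At 10 µM and 6 h, 4 fell and 3 rose, against 33.6% and 34% of all genes. MYOCD, the muscle coactivator myocardin, averaged 1.69 CPM, against 4.06 CPM in DMSO (−1.27 ± 0.09, adjusted p = 4.38e-13). It was lower at 6 h too (−0.27 ± 0.08). MKL2, which encodes MRTF-B, changed by −0.52 ± 0.05 at 24 h and −0.42 ± 0.05 at 6 h. MKL1, which encodes MRTF-A, changed by −0.2 ± 0.04 at 24 h and 0.18 ± 0.04 at 6 h. SCAI, a repressor of MRTF and SRF, was at −0.29 ± 0.07 at 24 h.

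Of 9 focal adhesion genes, listed as known SRF targets, 7 fell and 1 rose at 10 µM and 24 h (median −0.55), against 32.3% and 31.3% of all genes. At 10 µM and 6 h, 6 fell and 1 rose, against 33.6% and 34% of all genes. VCL, vinculin, averaged 434 CPM, against 950 CPM in DMSO (−1.13 ± 0.04), and was lower at 6 h (−0.72 ± 0.04). FHL1, a LIM-domain protein, changed by −1.23 ± 0.05 at 24 h and −0.02 ± 0.04 at 6 h with 10 µM, where it did not pass. FHL2 changed by −0.7 ± 0.05 and TLN1, talin, by −0.64 ± 0.04 at 24 h.

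**Figure D3:**
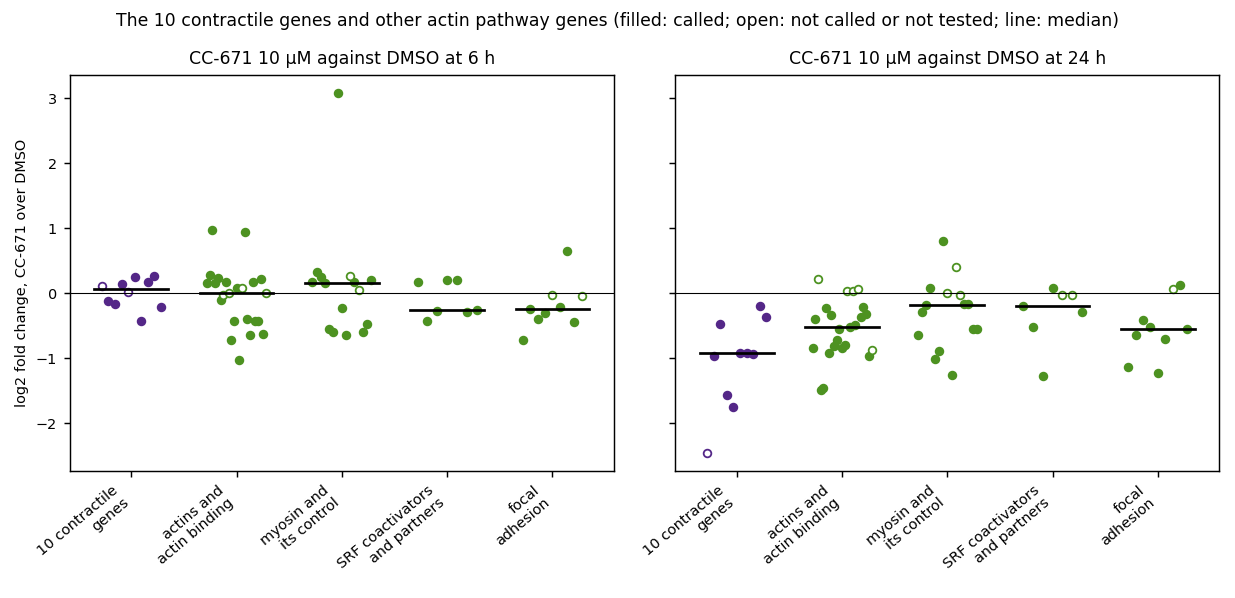
Log2 fold change of CC-671 at 10 µM over DMSO (vertical axis) at 6 h and 24 h for the 10 contractile genes and 4 lists of other actin genes. Filled points are changes, open points did not pass or were not tested, and lines are medians, without CNN1 at 24 h. The median of the tested contractile genes is −0.92 at 24 h and 0.07 at 6 h, and the highest point at 6 h is MYH11 at 3.09.

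Markers of other cells were read beside these values. Over all genes at 24 h, 30.9% fell and 29.7% rose at 3 µM, and 32.3% fell and 31.3% rose at 10 µM. All 6 fibroblast markers tested fell at 24 h at both doses, and the summed level of the 7 was 270 to 286 CPM in treated libraries and 350 to 355 CPM in DMSO. DCN (decorin), a defining fibroblast gene, was at 0 in 11 libraries. The other fibroblast markers were read in every library, with medians of 231 CPM for COL3A1, 42.3 for PDGFRB and 16.9 for COL1A2. COL1A1 stood at 12.6, LUM at 2.14 and PDGFRA at 1.27 CPM. Of the 6 smooth muscle genes tested, which include ACTG2 and MYOCD of the lists, 3 fell and 1 rose at each dose. The sum of all 7 was 48.8 to 57.4 CPM in treated libraries and 63.5 to 65.5 CPM in DMSO. The 7 epithelial markers summed to 1863 to 1919 CPM in treated libraries and 1596 to 1641 CPM in DMSO. Of these 7, 3 were higher at each dose, and 1 was lower at 3 µM and 2 at 10 µM. The 5 mesenchymal markers summed to 1829 to 1995 CPM in treated libraries and 2322 to 2359 CPM in DMSO, most of it FN1. Of these 5, 3 were lower at each dose, and 2 were higher at 3 µM and 1 at 10 µM. The 8 leukocyte markers summed to 6.08 to 7.64 CPM in treated libraries and 13.1 to 13.7 CPM in DMSO, most of it PTPRC, while MS4A1 was at 0 in all 16. Of the 4 leukocyte markers tested, 2 were higher and 1 lower at 3 µM, and 1 was higher and 1 lower at 10 µM. ESR1, PGR and ERBB2 together had 108 to 121 CPM in treated libraries and 189 to 192 CPM in DMSO. Nearly all of this was ERBB2, since ESR1 reached at most 0.0477 CPM and PGR 0.0356 CPM. All these sums are those of 24 h, and DMSO sums moved with time. In DMSO at 6 h, the epithelial sum was 1807 to 1827 CPM, the mesenchymal 1684 to 1915 and the fibroblast 278 to 290. There, smooth muscle genes summed to 72.4 to 74.5 CPM, leukocyte markers to 10.7, and ESR1, PGR and ERBB2 to 178 to 189. Read pairs outside annotated exons were taken as a share of the pairs at genes, ambiguous between genes or outside exons. They made up 5.64 to 6.1% in treated libraries and 4.26 to 4.59% in DMSO at 24 h, and 5.67 to 7% and 4.38 to 4.76% at 6 h. The part of these shifts in the changes of the contractile genes was not tested. In bulk RNA, fewer cells that express a gene and less RNA per cell cannot be told apart.

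Among 11861 other genes whose mean log2 CPM reached 1, those with a pattern most like CNN1 over the 16 libraries were MOGS, DDX46, TPM4, AIF1L and AHCY. Pearson's r of log2 CPM was 0.994 to 0.996, over points that share 1 wide gap, between the 6 treated libraries of 24 h and the other 10. AIF1L, an actin-binding protein, came closest in depth. It averaged 17 CPM at 3 µM and 24 h, against 44.3 CPM in DMSO (−1.38 ± 0.04), and changed by −1.66 ± 0.04 at 10 µM. DDX46, an RNA helicase of splicing, changed by −1.18 ± 0.03 and −1.36 ± 0.03. MOGS, a glucosidase of N-glycan processing, and AHCY, adenosylhomocysteinase, had shallower falls, −0.64 ± 0.04 and −0.72 ± 0.03 at 10 µM. Within the contractile genes, r with CNN1 ranged from 0.89 for CALD1 to 0.99 for CNN2 and ACTA2, over the same gap. When they were ranked together with the other genes, 2 of them were among the 25 most like CNN1.

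**Figure D4:**
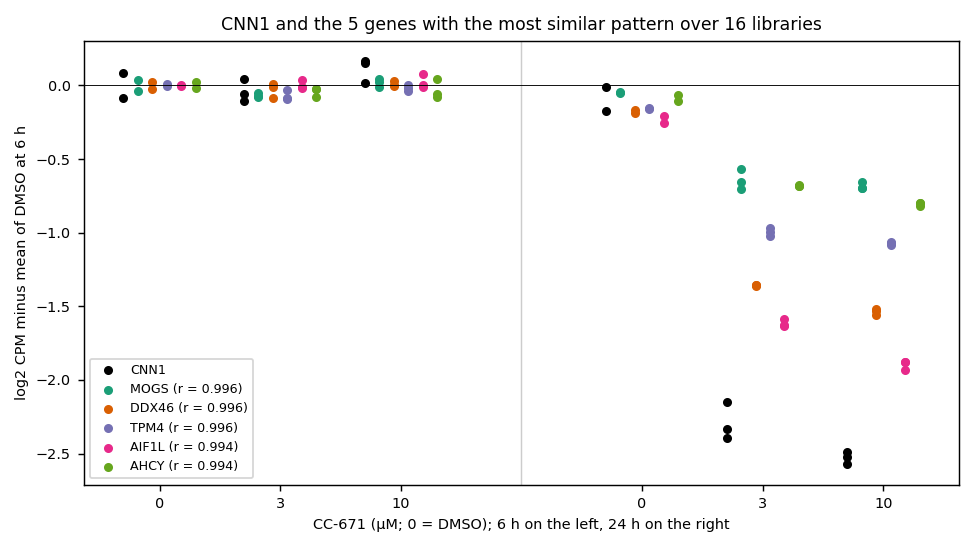
Log2 CPM of CNN1 and the 5 most similar genes in each library, less the mean of DMSO at 6 h, at 0 (DMSO), 3 and 10 µM with 6 h on the left and 24 h on the right. Points are libraries. All 6 genes drop in the treated libraries at 24 h, CNN1 deepest, and the legend gives Pearson's r with CNN1 over 16 libraries.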

How the data were processed

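Per the submitters' processing notes, STAR, HTSeq and edgeR were used with build hg19 (GRCh37). The sources used here give no versions, annotation release or strand setting. The authors deposited raw read-pair counts per gene symbol, 1 file per library, from strand-specific poly-A libraries per the labels' protocols. Entries that name no gene made up 16.9 to 20.2% of all pairs and stayed out of library sizes and tests.

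Genes were kept by filterByExpr (minimum count 10, minimum total 15) in edgeR 4.0.16. With TMM scaling (0.963 to 1.05), 1 model with 6 group means over the 16 libraries gave two-sided quasi-likelihood tests (robust, R 4.3.3), with Benjamini-Hochberg adjustment over 22007 genes in each of 9 comparisons. The SE is the absolute log2 fold change over the square root of F. Fits were tested on simulated data. Alternatives were DESeq2 1.42.0, limma-voom (limma 3.58.1), other scalings and filters, a fit of the compared groups, a replicate block and each library left out.

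The members and lists were chosen with earlier results of these data known. One list of genes is not reported here. From each other list, up to 4 changed genes with the largest values at 10 µM and 24 h are named, plus ACTB, ACTG1, MKL1, MKL2 and MYOCD. The 5 genes most like CNN1 are those with the highest Pearson r, leaving out clones and uncharacterised loci. Promoter windows and exon lengths are on GRCh38, another build than that of the counts.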

Additional observations from a re-analysis of the deposited data

Results flagged for a closer look

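The effect of CC-671 differed between 24 h and 6 h for all 9 tested genes at both doses, by the test of the difference itself in edgeR. In that test 49.3% of all genes changed at 3 µM and 54% at 10 µM. The SRF calls ended without scaling factors and without replicate 1 of DMSO at 6 h. The 9 genes were listed when results of these data were already known. As log2 differences, 24 h minus 6 h, the values at 3 µM were −1.45 for ACTA2, −1.35 for TAGLN, −0.93 for TPM2, −0.84 for MYL9, −0.69 for CNN2, −0.43 for TPM1, −0.4 for CNN3, −0.32 for CALD1 and −0.15 for SRF. At 10 µM they were −1.77 for ACTA2, −1.71 for TAGLN, −1.16 for MYL9, −1.1 for TPM2, −0.85 for CNN2, −0.5 for TPM1, −0.46 for CALD1, −0.3 for CNN3 and −0.15 for SRF. MYL9, TPM2 and CALD1 at both doses, and TAGLN at 10 µM, were lower than DMSO at 24 h and higher than DMSO at 6 h.

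Read pairs outside annotated exons enter no comparison of genes. Of the pairs at genes, ambiguous between genes or outside exons, they averaged 6.28% in the treated libraries at 6 h and 5.86% in those at 24 h. In DMSO they averaged 4.57% and 4.42%.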

How the results depend on the processing

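At 24 h against DMSO, the count of 9 of 9 tested genes that fell was the same under every alternative and with each library left out (lowest and highest count 9). In the main fit 30.9% of all genes fell at 3 µM and 32.3% at 10 µM. The 9 were listed with earlier results known, so nothing is read from the count. Counts ranged from 4 to 7 at 3 µM and 6 h, 8 to 9 at 10 µM and 6 h, 5 to 7 between doses at 24 h, 7 to 8 in DMSO over time and 8 to 9 for the differences between times. Between doses at 6 h the count of 3 became 5 when only genes with at least 1 CPM in 5 libraries were tested, and 2 to 5 with a library left out (5 without replicate 2 of 3 µM). The cause was not tested. Among values of single genes, 8 lost their call under at least 1 alternative, 6 gained one and 4 changed sign. Beside those given above, calls were gained with the stricter filter by TAGLN at 3 µM and 6 h (adjusted p = 0.0437) and, between doses at 6 h, by CNN1 (0.0393) and MYL9 (0.0474), by MYL9 there with no filter (0.0366), and by CNN3 between doses at 24 h in a fit of those groups alone (0.0336). Sign changes touched only values that had not passed. For CNN3 at 3 µM and 6 h the value became 0 with RLE scaling, 0.01 without scaling, 0.02 with the stricter filter and 0 in DESeq2, and −0.06 to 0.01 with a library left out. With a library left out, values ran from −0.13 to 0.03 for CNN1 at 3 µM and 6 h, from −0.02 to 0.04 for ACTA2 at 10 µM and 6 h, and from −0.01 to 0.02 for CALD1 between doses at 24 h. Without scaling factors the median of all genes moved by 0.101 at 3 µM and 0.11 at 10 µM at 24 h, and the 9 genes still fell.

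With replicate number as a block, 9 of 9 genes fell at 24 h at both doses. In this fit 13052 of all genes changed at 3 µM and 13711 at 10 µM, both directions together. Falls alone were not counted over all genes there. Between doses at 6 h the count was 2, TAGLN losing its call (adjusted p = 0.0513). Libraries with the same number did not deviate together (median r −0.029 over 36 pairs), so the numbers were not taken to pair them. A DMSO group of 1 library is assumed to vary like the other groups. Counting error limits CNN1 most.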
